A study of Zea mays with 28 samples.

Results

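The comparison described here set maize leaves carrying feeding mites for 2 h against leaves harvested 2 h after a single mechanical wounding. Its members were the 12 of 28 samples whose titles name *Oligonychus pratensis* infestation, *Tetranychus urticae* infestation or wounding at 2 h. Each of the 3 groups had 4 leaves. For each gene the mean of the group means of both mite species was compared with the mean of the wounded leaves, and all 39625 genes of the count table were considered. *O. pratensis*, the Banks grass mite, is specialised on grasses, and *T. urticae* is a generalist spider mite.

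The plants, of the inbred line B73, were 22 days old, leaf 4 was used throughout, and a replicate was the enclosed segment of 1 leaf from 1 plant. Mite leaves held 400 adult females at 2 h and 200 at 24 h, confined by wax barriers, and the *T. urticae* strain had been kept on bean before it was moved to maize. Wounded leaves were treated once, at the start, on both faces with sandpaper of 60 grit, whereas mites went on feeding until harvest. Control leaves carried the barriers alone. The labels describe the sandpaper treatment as rubbing and the study's methods as gentle pressing. All leaves were harvested together, with treatments started 2 or 24 h earlier. The control group and the 3 groups at 24 h serve below as reference levels only.

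Plant cells that are crushed or torn release fatty acids from chloroplast membranes, from which lipoxygenases, allene oxide synthase, allene oxide cyclase and 12-oxophytodienoate (OPDA) reductase make jasmonates. Jasmonate removes the JAZ repressors, which belong to the TIFY family, and so releases transcription of defence genes, among them the JAZ genes themselves. Maize defences under such control include proteinase inhibitors, volatile terpenes and benzoxazinoids, the indole-derived toxins of grasses. Spider mites feed by piercing single mesophyll cells with a stylet and sucking out their content, whereas sandpaper injures the leaf from its surface, and whether it was rubbed or pressed was not settled here. The treatments therefore differed in the kind of damage, its extent, its speed and its duration, since mites take time to settle and then go on feeding. The parts of these in any difference cannot be told apart. In a whole leaf segment, fewer responding cells and less RNA per cell cannot be told apart either.

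The wounded leaves at 2 h had 26216004 to 27928077 counted reads, the *O. pratensis* leaves 14721310 to 28515893 and the *T. urticae* leaves 20561929 to 24658239, and the highest total of the series was 32891100. No pair of replicates was a repeat of 1 library, since every pair differed by at least 10.5 times the variance that counting alone gives. Levels are given in CPM, the reads of a gene scaled to a common library size (by TMM), so they can be compared between samples of 1 gene but not between genes. As a check of the tissue, all 17 listed genes of the C4 and Calvin cycles passed the filter on low counts. PPDK (GRMZM2G306345), the mesophyll enzyme that regenerates the acceptor of carbon dioxide, held 31890 to 38010 CPM in wounded, 41050 to 49180 CPM in mite and 39950 to 56390 CPM in control leaves, and its log2 difference of 0.37 was below the size needed for a call.

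Leaves with mites and wounded leaves differed widely at 2 h, mostly because of genes that were lower with mites. A gene was called when edgeR's quasi-likelihood test gave an adjusted p of at most 0.01 and the log2 difference was at least 1 in size. Of 22339 genes tested, 3198 (14.3%) were called lower with mites and 1433 (6.41%) higher. The differences were also larger on the lower side, with a median log2 difference of -1.86 among the genes called lower and 1.34 among those called higher. At least 4-fold differences were found for 1430 genes called lower and 181 called higher, at least 16-fold differences for 306 and 2, and 63 genes were at least 64-fold lower. The median over all genes tested was 0.02. In 2952 of the 3198 genes called lower all 8 mite leaves lay below all 4 wounded leaves, and in 1209 of the 1433 called higher all 8 lay above. Over all genes tested the same separation was found for 4947 genes (22.1%) below and 3875 (17.3%) above. The smaller differences depend on the null: tested with glmTreat against a difference of 2-fold rather than 0, 2092 genes were called lower and 380 higher. Counts of list members at 2 h are to be read against the shares over all genes, 14.3% lower and 6.41% higher, which are repeated where a list is first described.

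**Figure D1:**
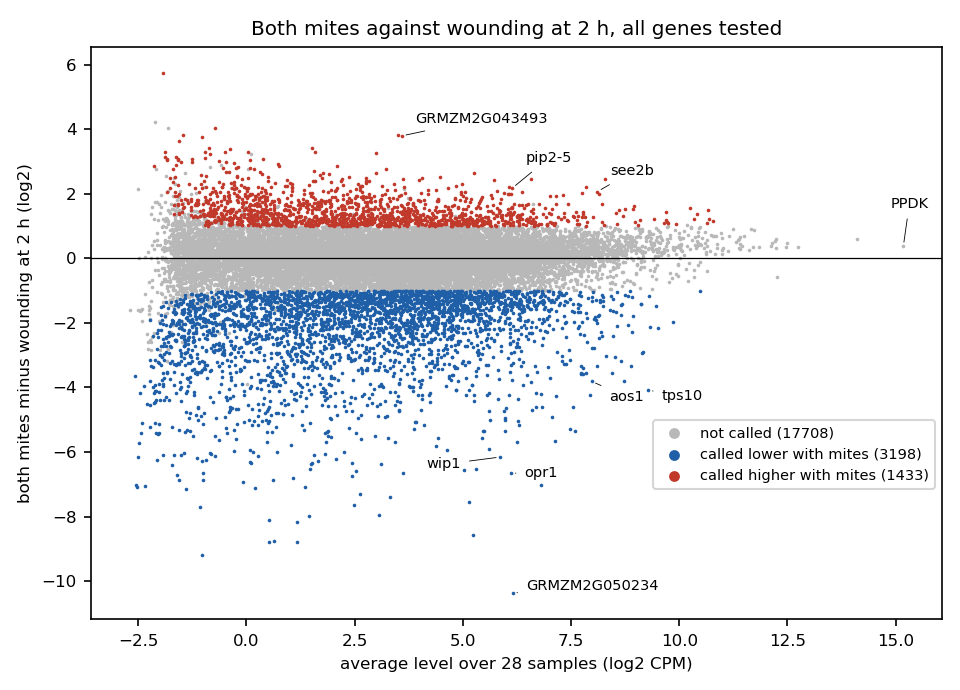
Log2 difference of both mites minus wounding at 2 h (vertical axis) against the average level over 28 samples in log2 CPM (horizontal axis) for the 22339 genes tested. Blue points are the 3198 genes called lower with mites, red points the 1433 called higher and grey points the rest. The blue points reach -10.37 (GRMZM2G050234), whereas few red points lie above 4.

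The control leaves show where these levels lay against an untreated leaf. Among the genes called higher with mites, the median log2 difference was -0.15 for mites minus control and -1.49 for wounding minus control. Among those called lower, it was 0.47 for mites minus control and 2.5 for wounding minus control. The control mean fell inside the range of the 8 mite leaves for 1135 of the 1433 genes called higher and for 1842 of the 3198 called lower, and below that range for a further 1303 of the latter. In tests of their own, 3793 genes (17%) were higher and 1891 (8.47%) lower in wounded leaves than in controls, and 915 (4.1%) were higher and 16 (0.0716%) lower in mite leaves than in controls, 4.17% in either direction. The count of 16 rested on single leaves: it was 2 and 39 when control replicate 1 or 2 was left out, 10 in either case for replicate 1 or 2 of *O. pratensis*, and 8 for replicate 1 of *T. urticae*. These comparisons share leaves with the main comparison and are given as levels only.

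Most genes tested in the families of jasmonate synthesis and of the parallel 9-lipoxygenase branch were lower with mites. Not every member is known to make jasmonate. For OPDA reduction the study names OPR7 and OPR8, and it calls the role of some allene oxide synthase genes uncertain. Of 11 lipoxygenase genes tested, 7 were called lower and 0 higher, with a median log2 difference of -1.55. Of 13 genes for allene oxide synthases, cyclases and OPDA reductases, 9 were called lower and 1 higher, with a median of -3.41, and glmTreat called 0 higher. The shares called lower, 63.6% and 69.2%, stand beside 14.3% of all genes tested.

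lox5 (GRMZM2G102760), a 9-lipoxygenase, stood at 536, 804, 764 and 1157 CPM in the wounded leaves. It stood at 39.2, 94.8, 93 and 89.5 CPM in the *O. pratensis* leaves and at 5.13, 31.8, 13.2 and 45.1 CPM in the *T. urticae* leaves. The control leaves held 1.5 to 2.58 CPM. The leaves of the mite species overlapped, but every mite leaf lay between the controls and the wounded leaves, and the difference was 18.8-fold (log2 -4.23 ± 0.33 SE, adjusted p = 1.93e-11). The lipoxygenase genes lox1 (GRMZM2G156861) and lox3 (GRMZM2G109130) differed by -3.57 and -4.08 on the log2 scale. ts1 (GRMZM2G104843, tasselseed1, also called LOX8), a 13-lipoxygenase that supplies jasmonate in the tassel, held 317 to 494 CPM in wounded and 76.3 to 182 CPM in mite leaves, a log2 difference of -1.64. lox10 (GRMZM2G015419), which makes green leaf volatiles and held the most reads of the list, had 4714 to 6927 CPM in wounded and 2544 to 5844 CPM in mite leaves. Its groups overlapped, and its log2 difference of -0.57 was below the size needed for a call.

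aos1 (GRMZM2G067225), an allene oxide synthase gene, stood at 911, 1233, 1233 and 1058 CPM after wounding, at 104, 168, 117 and 140 CPM with *O. pratensis* and at 15.3, 72.3, 35.2 and 65 CPM with *T. urticae*. The controls held a mean of 1.99 CPM. The 3 treated groups were separate from each other and from the controls, and mite leaves were 14.1-fold below wounded leaves (log2 -3.82 ± 0.24 SE, adjusted p = 3.02e-13). The related aos2 (GRMZM2G002178) and the cyclase gene aoc1 (GRMZM2G077316) differed by -4.45 and -3.62. For aoc1 the mean levels with *O. pratensis* and *T. urticae*, 8.2 and 6.7 CPM, were near the control mean of 6.61 CPM, whereas wounded leaves had a mean of 91.4 CPM.

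The OPDA reductase family split. opr1 (GRMZM2G106303) stood at 271, 487, 446 and 322 CPM in wounded leaves, and its 8 mite leaves ranged from 1.11 to 6.61 CPM with a median of 4.49 CPM. It was 101-fold lower with mites (log2 -6.66 ± 0.27 SE, adjusted p = 3.53e-17), and opr2 (GRMZM2G000236) was lower by -5.70 on the log2 scale. opr7 (GRMZM2G148281), which with opr8 supplies the jasmonate of the maize plant, had 75.5 to 109 CPM after wounding and 18 to 35.3 CPM with mites, a log2 difference of -1.91. opr8 (GRMZM2G082087) was not called, at 0.38. opr6 (GRMZM2G068947) went the other way, with 18.4 to 22.4 CPM in wounded, 41.2 to 56.3 CPM in mite and 47.5 to 63.6 CPM in control leaves (log2 1.23, adjusted p = 7.69e-12). aos2, aoc1, opr7, opr8 and ts1 were chosen after their values were seen.

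The TIFY and JAZ repressors, read-outs of jasmonate perception, were lower as a family: 16 of 21 genes tested (76.2%, beside 14.3% of all genes) were called lower and 0 higher, with a median log2 difference of -1.90. TIFY9 (GRMZM2G145412) stood at 123, 220, 145 and 115 CPM in wounded leaves, 23.1, 35.7, 20.6 and 26.7 CPM with *O. pratensis* and 4.11, 11.7, 4.07 and 10.5 CPM with *T. urticae*. The controls held 0.125 to 0.492 CPM, so each group occupied a range of its own (log2 -3.41 ± 0.23 SE against wounding, adjusted p = 8.9e-13). TIFY10 (GRMZM2G145458) differed by -3.45. TIFY29 (GRMZM2G036288) had no read in any control leaf, 33.8 to 70.3 CPM after wounding, 6.97 to 16.7 CPM with *O. pratensis* and 1.11 to 5.55 CPM with *T. urticae*. Set against 3 reads over the control group, it was at least 1830-fold higher than controls after wounding and at least 237-fold higher with mites, and mites were below wounding by -3.23 on the log2 scale. TIFY24 (GRMZM2G126507), the member of highest count, showed a smaller separation of 590 to 725 CPM against 306 to 467 CPM and was not called (log2 -0.72).

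Most benzoxazinoid genes were lower with mites. Of 12 genes tested, 8 (66.7%, beside 14.3% of all genes) were called lower and 0 (beside 6.41%) higher, with a median log2 difference of -1.50, and BX1, BX2, BX13 and BX14 were not called. BX1 (GRMZM2G085381), the indole synthase that opens the pathway, held 0.42 to 12.5 CPM in wounded and 0.995 to 12.9 CPM in mite leaves. BX2 (GRMZM2G085661) also overlapped, with 12.1 to 40.9 CPM in wounded and 10.8 to 26.3 CPM in mite leaves, and neither was called (adjusted p = 0.488 and 0.15). BX3 (GRMZM2G167549), which encodes a cytochrome P450 of the pathway, stood at 405, 470, 454 and 609 CPM after wounding and at 90.6 to 162 CPM over the 8 mite leaves. Its controls held 72.6 to 114 CPM, a range that overlaps that of the mite leaves, and the difference between mites and wounding was -1.86 ± 0.14 SE on the log2 scale (adjusted p = 4.79e-12).

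The other P450 genes BX4 (GRMZM2G172491) and BX5 (GRMZM2G063756), the dioxygenase gene BX6 (GRMZM6G617209) and the glucosyltransferase genes BX8 (GRMZM2G085054) and BX9 (GRMZM2G161335) differed by -1.15, -1.31, -1.36, -1.05 and -1.64. BX4 and BX8 were under the size needed for a call with *O. pratensis* alone, at -0.96 and -0.93.

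BX10 (GRMZM2G311036) and BX11 (GRMZM2G336824) encode methyltransferases that convert DIMBOA-glucoside to HDMBOA-glucoside. BX10 stood at 148, 174, 248 and 229 CPM after wounding, at 38.2, 67.8, 40.3 and 55.7 CPM with *O. pratensis* and at 4.48, 16.9, 10.5 and 25 CPM with *T. urticae*, while controls held 0.0442 to 0.171 CPM. The 4 groups did not overlap, and mite leaves were 7.46-fold below wounded leaves (log2 -2.90 ± 0.27 SE, adjusted p = 4.53e-10). BX11 differed by -2.58. BX13 (AC148152.3_FG005) had 13 reads over the wounded, 1 over the mite and 0 over the control leaves, and BX14 (GRMZM2G127418) had 5, 2 and 0, so that a difference in either was at the limit of this depth and neither was called.

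Inhibitors of the proteinases that herbivores use for digestion were represented by 10 genes tested, of which 3 (30%, beside 14.3% of all genes) were called lower and 0 higher, with a median log2 difference of -0.17. wip1 (GRMZM2G156632), the wound-induced Bowman-Birk type inhibitor of maize, stood at 11.3, 14.2, 26.9 and 24.5 CPM in wounded leaves. It ranged from 0.0924 to 0.721 CPM in the 8 mite leaves and from 0 to 0.274 CPM in controls. The mite and control ranges overlapped and both lay far below the wounded range, 71.4-fold lower with mites (log2 -6.16 ± 0.32 SE, adjusted p = 5.06e-15). MPI (GRMZM2G028393), the maize proteinase inhibitor, was lower by a smaller amount, with 152 to 230 CPM after wounding, 29.2 to 80.7 CPM with mites and 12.2 to 34.8 CPM in controls (log2 -1.89).

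Of 9 genes for chitinases and pathogenesis-related proteins, 5 (55.6%, beside 14.3% of all genes) were called lower and 0 higher, with a median of -1.62, and glmTreat called 3. Chitinases cleave a polymer of fungal walls and arthropod cuticle. chiI (GRMZM2G145461) stood at 384, 452, 338 and 309 CPM in wounded leaves and at 17.7 to 58.6 CPM in the 8 mite leaves, with 3.71 to 12.8 CPM in controls. Every mite leaf lay above the controls and below the wounded leaves, and chiI was 10.3-fold lower with mites (log2 -3.37 ± 0.24 SE, adjusted p = 2.67e-12). The chitinase genes GRMZM2G129189 and GRMZM2G162359 differed by -4.07 and -2.23. The 8 genes that the study names by identifier were chosen by it on these samples and are no independent evidence of a direction. They also include genes that make phenylalanine and turn it into cinnamate derivatives, and 7 of the 8 were called lower.

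GRMZM2G437912, named by the study as a prephenate dehydratase gene of phenylalanine synthesis, stood at 246, 311, 278 and 267 CPM after wounding, 75.2 to 100 CPM with *O. pratensis* and 30.8 to 61.3 CPM with *T. urticae*. The control mean was 20.2 CPM, so the mite leaves again lay between (log2 -2.14 ± 0.16 SE, adjusted p = 1.29e-11). The second prephenate dehydratase gene GRMZM2G125923 and the cinnamate 4-monooxygenase genes GRMZM2G147245 and GRMZM2G010468 differed by -2.09, -2.13 and -3.30. The exception was GRMZM2G063917, a phenylalanine ammonia-lyase gene, which held 2.95 to 6.74 CPM in wounded, 6.49 to 8.41 CPM in *O. pratensis*, 2.63 to 4.02 CPM in *T. urticae* and 1.93 to 3.59 CPM in control leaves. Its mite and wounded leaves overlapped and it was not called (log2 0.23, adjusted p = 0.292). In the separate list of 10 phenylpropanoid and flavonoid enzymes 1 gene was called lower and 1 higher (10% each, beside 14.3% and 6.41% of all genes). The lower count was 2 without wounding replicate 3, *O. pratensis* replicate 2 or *T. urticae* replicate 2 or 4. The higher count was 0 when any wounded leaf, *O. pratensis* replicate 1 or *T. urticae* replicate 1, 2 or 3 was left out.

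Of 19 terpene synthase and homoterpene genes, 11 (57.9%, beside 14.3% of all genes) were called lower and 2 (10.5%, beside 6.41%) higher, with a median of -1.37. The count of 2 fell to 0 or 1 when any single library other than wounding replicate 3 or *T. urticae* replicate 4 was left out. The symbol TPS is also used for trehalose phosphate synthases, and membership was not checked beyond the symbol. tps10 (GRMZM2G179092), which makes the sesquiterpenes bergamotene and farnesene that attract enemies of herbivores, stood at 1015, 1464, 1557 and 1809 CPM in wounded leaves. It stood at 91, 210, 139 and 120 CPM with *O. pratensis*, at 13.5, 82.5, 35.5 and 79.6 CPM with *T. urticae* and at 0.376 to 0.834 CPM in controls. Each treated group was separate from the next, and mite leaves were 17-fold below wounded leaves (log2 -4.09 ± 0.33 SE, adjusted p = 2.87e-11). TPS2 (GRMZM2G046615, chosen after its values were seen) and TPS3 (GRMZM2G064406), which contribute to linalool and nerolidol, differed by -3.34 and -3.57. Among other genes under these names, GRMZM2G123277 (TPS2) was called lower and GRMZM2G118462 (TPS3) was not called. Of the homoterpene P450 genes, CYP92C5 was called lower and CYP92C6 was not called.

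**Figure D2:**
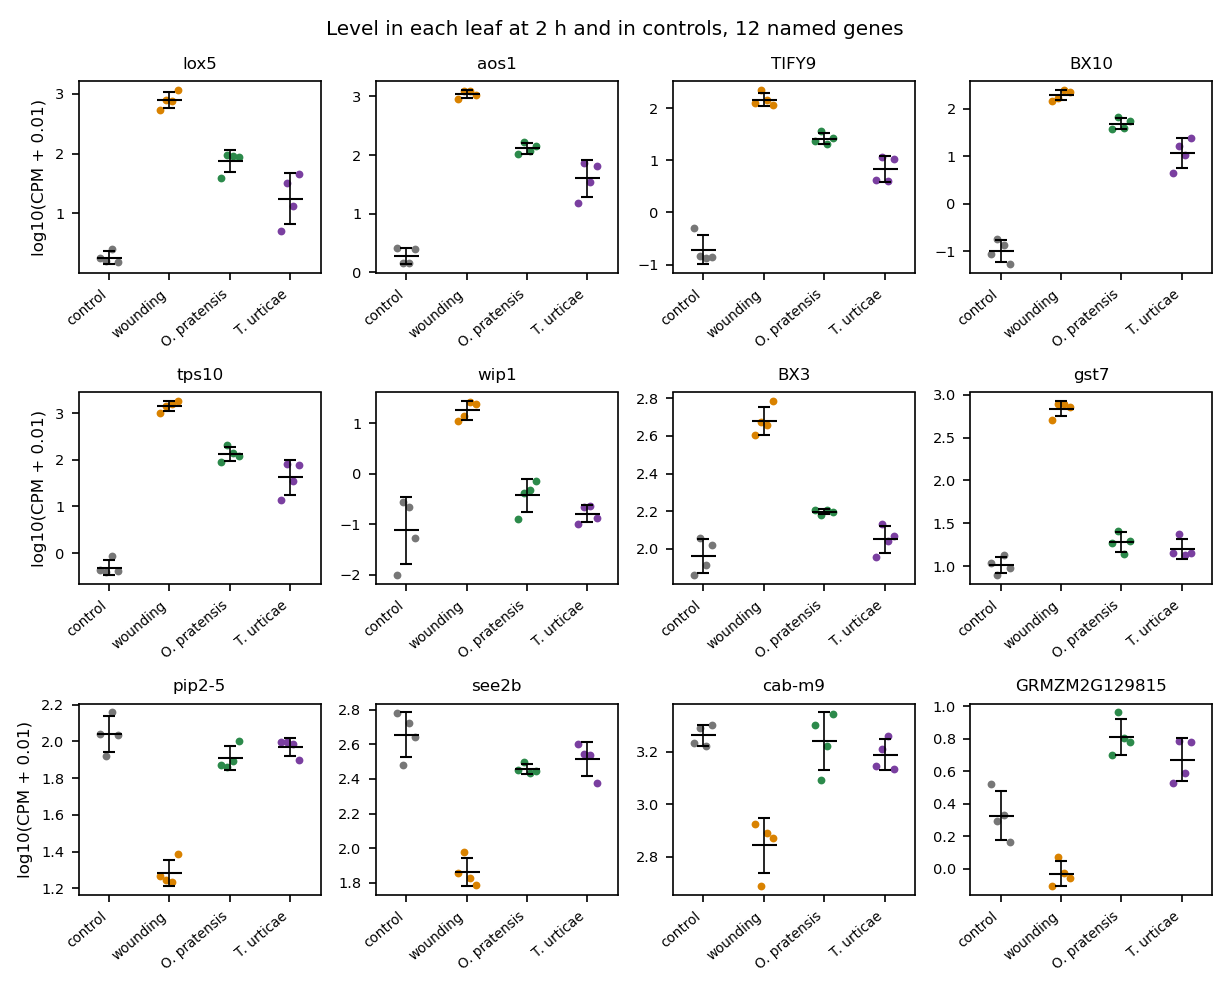
Level of 12 genes in each leaf, as log10 of CPM plus 0.01, in controls, 2 h after wounding and after 2 h with *O. pratensis* or *T. urticae*. Points are the 4 leaves of a group, with the mean and SD of these log values. In the first 8 genes every mite leaf lies below every wounded leaf, and in the last 4 every mite leaf lies above.

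Glutathione S-transferases conjugate reactive compounds to glutathione. Of 27 tested, 12 (44.4%, beside 14.3% of all genes) were called lower with mites, 2 (7.41%, beside 6.41%) higher and 13 not called, with a median of -0.76, and glmTreat called 0 higher. gst7 (GRMZM2G028556) stood at 505, 776, 767 and 726 CPM after wounding, at 13.4 to 25.9 CPM in the 8 mite leaves and at 7.9 to 13.5 CPM in controls. The wounded leaves were far apart from the rest, and gst7 was 38.7-fold lower with mites (log2 -5.28 ± 0.22 SE, adjusted p = 5.35e-17). gst31 (GRMZM2G475059) differed by -5.35. In2-2 (GRMZM2G020631), known as a gene induced by herbicide safeners, stood at 132, 243, 270 and 193 CPM after wounding and at 1.25 to 3.14 CPM in mite leaves, inside the control range of 0.871 to 3.08 CPM but for a single leaf (log2 -6.51 ± 0.32 SE). GST38 (GRMZM2G066369) went the other way, with 4.42 to 8.15 CPM in wounded and 12.4 to 22 CPM in mite leaves (log2 1.36). gst1 (GRMZM2G116273), the member of highest count, was not called, at -0.80.

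Among oxidases, AO1 (GRMZM2G141535), an aldehyde oxidase gene, was 56.9-fold lower with mites, with 54.6 to 115 CPM after wounding and 0.693 to 2.71 CPM with mites. MPAO (GRMZM2G034152), a polyamine oxidase of the cell wall, stood at 1466, 1554, 1725 and 2005 CPM in wounded leaves, at 417 to 528 CPM with *O. pratensis* and at 285 to 510 CPM with *T. urticae*. Its control leaves spread from 93.4 to 435 CPM and overlapped the mite leaves (log2 -1.96 ± 0.25 SE, adjusted p = 1.74e-07). Of 23 enzymes of reactive oxygen metabolism, 3 were called lower (13%) and 1 higher (4.35%), shares at or below those of all genes (14.3% and 6.41%), with a median of 0.01. As a single gene, rbohD (GRMZM2G441541), an NADPH oxidase that makes superoxide outside the cell, stood lower with mites, at 232, 369, 339 and 277 CPM after wounding, 29.6 to 78.2 CPM with mites and 20.7 to 38.4 CPM in controls (log2 -2.51 ± 0.15 SE).

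Lists of early signalling held few genes each. Calcium signalling had 4 of 25 genes called lower (16%, near the 14.3% of all genes) and 1 higher (median -0.08). The higher count was 2 without wounding replicate 4 and 0 without wounding replicate 2 or 3, *O. pratensis* replicate 1, 2 or 4 or *T. urticae* replicate 1, 2 or 3. MAP kinases had 3 of 9 called lower (33.3%, and 1 with glmTreat) and 0 higher (median -0.59). Peptide signals and receptors had 4 of 9 (44.4%) and 0 (median -0.75), and ethylene synthesis and receptors 2 of 6 (33.3%) and 0 (median -0.64). PepR1 (GRMZM2G011806), named as a receptor of the plant elicitor peptides, stood at 47, 75.7, 66.2 and 50 CPM after wounding, at 3.53 to 5.28 CPM with *O. pratensis* and at 0.924 to 3.15 CPM with *T. urticae*. Controls held 0.152 to 0.333 CPM, so the groups formed 4 separate ranges (log2 -4.42 ± 0.18 SE, adjusted p = 6.58e-17). psk1 (GRMZM2G044194), a precursor of the peptide hormone phytosulfokine, differed by -2.71. The calcium sensor gene CBL5 (GRMZM2G041729) and the calmodulin gene CaM1 (GRMZM2G152891) differed by -4.50 and -1.56, and the kinase gene MAPK (GRMZM2G053987) by -1.46. ACS6 (GRMZM2G054361), for the rate-limiting enzyme of ethylene synthesis, held 2.45 to 6.22 CPM in wounded and 0 to 0.626 CPM in mite leaves (log2 -4.71).

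Transcription factors were called in both directions. Over all genes 14.3% were called lower and 6.41% higher. WRKY factors had 7 of 17 genes (41.2%) called lower, or 4 with glmTreat, and 0 higher (median -0.44), with 1 higher without wounding replicate 2. NAC factors had 9 of 15 (60%) and 0 (median -1.40), and factors of the EREB, ERF and DREB group 14 of 29 (48.3%) and 1 (3.45%, median -1.01). MYB and MYB-related factors had 10 of 45 (22.2%) called lower and 9 (20%) higher (median 0.10), and glmTreat called 5 and 5. bHLH factors had 8 of 32 (25%) and 6 (18.8%, median 0.03), and glmTreat called 5 and 1. bZIP factors, with 5 of 30 lower (16.7%) and 2 higher (6.67%), were about at the shares of all genes, and homeobox factors, with 2 of 25 (8%) and 1 (4%), were below them. The higher count of bZIP factors was 1 without *O. pratensis* replicate 2 or 3 or *T. urticae* replicate 1, and that of homeobox factors was 2 without wounding replicate 1 or 2, *O. pratensis* replicate 2 or 3 or *T. urticae* replicate 4.

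WRKY95 (GRMZM2G151763) stood at 36.3, 58.4, 53.8 and 40.8 CPM in wounded leaves and at 1.21 to 2.23 CPM in the 8 mite leaves, with 0.442 to 1.21 CPM in controls. The leaves of the mite species overlapped, and every one was far below the wounded leaves (log2 -4.93 ± 0.15 SE, adjusted p = 2.35e-19). NAC20 (GRMZM2G180328), EREB139 (GRMZM2G103085) and bHLH150 (GRMZM2G045431) differed by -4.24, -4.62 and -4.26. EREB139 had no read in controls, and against 3 reads over the control group it was at least 285-fold higher after wounding and at least 13.2-fold higher with mites. On the higher side were the MYB-related genes MYBR87 (GRMZM2G158117) and MYBR41 (GRMZM2G150260) and the bHLH gene bHLH165 (GRMZM2G145579), at 2.52, 2.30 and 2.10. MYBR41 held 7.29 to 12.7 CPM in wounded, 33.2 to 54.8 CPM in mite and 43.5 to 66.2 CPM in control leaves, so its mite leaves lay with or just below the controls.

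Genes of abscisic acid (ABA), the hormone of water deficit, were called in both directions. ABA binds PYL receptors, which then block the type 2C protein phosphatases (PP2C) that hold SnRK2 kinases inactive. Of 22 PP2C genes 11 (50%, beside 14.3% of all genes) were called lower with mites and 1 (4.55%, beside 6.41%) higher, with a median of -0.96. Of 16 genes in the list of receptors, SnRK2 kinases and ABA synthesis 2 (12.5%) were called lower and 5 (31.2%) higher, with a median of 0.35, and glmTreat called 1 and 1. vp14 (GRMZM2G014392), for the cleavage step that limits ABA synthesis, stood at 23.3, 41.4, 35.2 and 27.7 CPM after wounding, at 10.4 to 14.5 CPM with *O. pratensis*, at 5.36 to 10.1 CPM with *T. urticae* and at 2.25 to 3.07 CPM in controls (log2 -1.66 ± 0.16 SE). The receptor gene PYL10 (GRMZM2G063882) was higher with mites, at 60.3 to 98.4 CPM against 30.1 to 33.4 CPM after wounding (log2 1.36). Another gene of that name, GRMZM2G165567, was not called, and the receptor gene PYL11 (GRMZM2G133613) was called lower. PP2C7 (GRMZM2G383807) differed by -2.51, and PP2C17 (GRMZM2G040452) by 1.97.

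Dehydrins and related proteins, which protect cell contents during drying, had 3 of 4 genes (75%, beside 14.3% of all genes) called lower and 0 higher (median -1.87). dehydrin3 (GRMZM2G373522) stood at 575, 832, 587 and 516 CPM after wounding, at 17.4 to 43.1 CPM in the 8 mite leaves and at 4.58 to 8.41 CPM in controls. Every mite leaf lay above the controls and below the wounded leaves, and mite leaves were 24.6-fold below wounded leaves (log2 -4.62 ± 0.21 SE, adjusted p = 3.35e-16). asr1 (GRMZM2G136910), an ABA- and stress-ripening gene, differed by -1.65, with means of 780 CPM after wounding, 250 and 246 CPM with *O. pratensis* and *T. urticae*, and 239 CPM in controls.

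Of 11 expansins, wall-modifying transferases and endoglucanases, 6 (54.5%, beside 14.3% of all genes) were called lower and 0 higher (median -1.23). Of 18 cellulose synthase and COBRA-like genes 4 (22.2%, and 2 with glmTreat) were called lower and 0 higher (median -0.35). Tubulins and actins, with 3 of 17 lower (17.6%) and 0 higher (median -0.27), were near the share of all genes. Of 15 sugar genes 5 (33.3%) were called lower and 1 (6.67%) higher (median -0.20), and glmTreat called 3 and 0. expa2 (GRMZM2G105844), an expansin gene, held 5.58 to 10.4 CPM in wounded and 0.0447 to 0.556 CPM in mite leaves (log2 -5.22). CesA-8 (GRMZM2G177631), a cellulose synthase gene, and act1 (GRMZM2G126010), an actin gene, differed by -1.96 and -2.02. incw1 (GRMZM2G139300), the cell wall invertase that splits sucrose on arrival in sink tissue, held 179 to 227 CPM in wounded, 33 to 55.9 CPM in mite and 25 to 35.1 CPM in control leaves (log2 -2.12). sus2 (GRMZM2G318780), a sucrose synthase gene, differed by -2.27, and SPS (GRMZM5G875238), the sucrose phosphate synthase of sucrose export, by 1.12 in the other direction.

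Among heat shock proteins and factors 5 of 22 were called lower (22.7%, beside 14.3% of all genes, and 3 with glmTreat) and 0 higher, with hsp101 (GRMZM2G360681), a disaggregating chaperone, at -3.47. Of 20 folding proteins of the endoplasmic reticulum 3 (15%) were called lower and 0 higher. Of 36 ribosomal protein genes 2 were called lower (5.56%, below the background of 14.3%) and 0 higher. Of 24 histone, cyclin and kinesin genes 3 (12.5%) were lower and 1 (4.17%) higher, and no call was made among 7 laccases and 12 autophagy genes. Of 28 cytokinin genes 7 (25%, and 3 genes with glmTreat) were lower and 1 (3.57%) higher, and that single gene, CKX10 (GRMZM2G348452), a cytokinin oxidase gene, held 43.5 to 65.6 CPM in wounded and 142 to 294 CPM in mite leaves, beside 174 to 244 CPM in controls (log2 1.93). Of 25 growth-regulating factor, ARGOS and CNR genes 6 (24%) were lower and 3 (12%) higher, with 2 and 1 under glmTreat, and of 5 MLO genes 1 (20%) was lower and 0 higher.

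**Figure D3:**
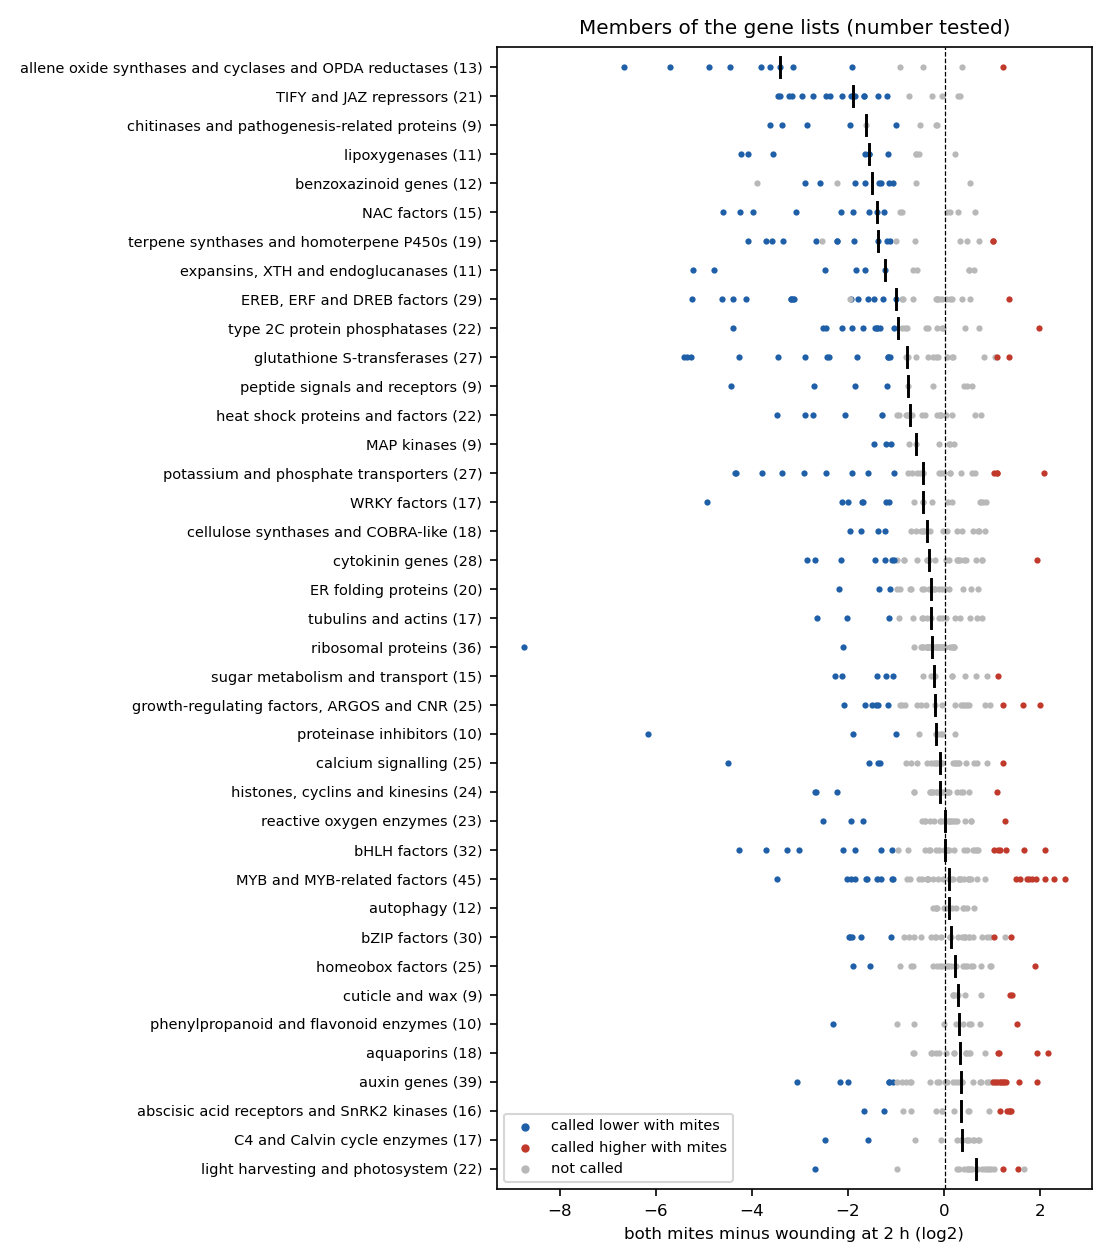
Log2 difference of both mites minus wounding at 2 h for each member of the gene lists with at least 9 genes tested (number tested in brackets), ordered by their median (black bars), with the median of all genes tested as a dashed line. Members called lower are blue, members called higher red and the rest grey. Allene oxide and OPDA reductase genes stand at the top with a median of -3.41, followed by the TIFY genes at -1.90. Light harvesting genes stand at the bottom with a median of 0.67.

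Genes that were higher with mites than after wounding were close to their control level in mite leaves and low in wounded leaves. Light harvesting and photosystem genes were the list with the highest median, 0.67. In 14 of 22 genes all mite leaves lay above all wounded leaves, beside 17.3% of all genes tested, but most differences were under 2-fold. Of the 22, 2 were called higher (9.09%, near the 6.41% of all genes) and 1 lower (4.55%). The higher count was 4 without wounding replicate 4 and 0 with glmTreat, and the lower count was 2 without wounding replicate 1 or 3, *O. pratensis* replicate 1 or 2 or *T. urticae* replicate 1 or 2. cab-m9 (GRMZM2G155216), a chlorophyll a/b binding protein gene, stood at 840, 488, 776 and 746 CPM after wounding, at 1241 to 2210 CPM in the 8 mite leaves and at 1675 to 2011 CPM in controls. Mite and control leaves overlapped and both lay above the wounded leaves (log2 1.23 ± 0.19 SE, adjusted p = 3.36e-06). psad1 (GRMZM2G024150), for a subunit of photosystem I, differed by 1.53, with 37.9 to 76 CPM in wounded and 102 to 311 CPM in mite leaves. Of 17 enzymes of the C4 and Calvin cycles 2 (11.8%) were called lower and 0 higher.

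Aquaporins, the water channels of the plasma membrane and the vacuole, had 4 of 18 genes (22.2%, beside 6.41% of all genes) called higher with mites and 0 lower (median 0.33). The count was 2 without wounding replicate 4 and 1 with glmTreat. pip2-5 (GRMZM2G178693) stood at 18.5, 17.6, 17.1 and 24.2 CPM after wounding, at 74.6, 72.7, 78.7 and 101 CPM with *O. pratensis*, at 99, 99, 97.1 and 78.8 CPM with *T. urticae* and at 83.7 to 144 CPM in controls. The mite leaves overlapped the controls and lay well above the wounded leaves, by 4.51-fold (log2 2.17 ± 0.17 SE, adjusted p = 1.86e-11). TIP2-1 (GRMZM2G027098), a vacuolar channel gene, differed by 1.14, and PIP1-1 (GRMZM2G174807), the member of highest count, was not called, at 0.46.

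Auxin genes had 10 of 39 members called higher (25.6%, beside 6.41% of all genes) and 6 lower (15.4%, near the 14.3% of all genes), with a median of 0.35, and glmTreat called 1 and 3. Among those higher was ARF12 (GRMZM2G437460), an auxin response factor gene, at 1.56. Of 9 cuticle and wax genes, which are active in the epidermis, 2 (22.2%) were called higher, or 0 with glmTreat, and 0 lower, with log2 differences from 0.19 to 1.42 and a median of 0.29, and CER1 (GRMZM2G066578), of wax alkane synthesis, held 14 to 20.8 CPM in wounded and 33.4 to 56.2 CPM in mite leaves (log2 1.37). Loss of epidermal cells after wounding was not measured, and its part in these differences was not tested. Of 27 potassium and phosphate transporters 9 (33.3%, beside 14.3% of all genes) were lower and 4 (14.8%, beside 6.41%) higher. The count of 4 was 2 without wounding replicate 3 or *T. urticae* replicate 2 and 0 with glmTreat. The potassium transporter genes HAK5 (GRMZM2G084779) and HAK11 (GRMZM2G005040) differed in opposite directions, by -4.35 and 2.08.

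Several single genes of high level followed the same pattern. see2b (GRMZM2G093032), a legumain-like protease gene known from senescing leaves, stood at 71.6, 94.6, 67.6 and 61.4 CPM in wounded leaves, at 236 to 400 CPM in the 8 mite leaves and at 304 to 603 CPM in controls (log2 2.07 ± 0.17 SE, adjusted p = 7.85e-11). thi1 (GRMZM2G018375), for the thiazole part of thiamine, stood at 59.2, 33.3, 62.6 and 92.4 CPM after wounding and at 182 to 336 CPM with mites (log2 2.04). The wounded leaves of both genes were the low group, and mite leaves overlapped the controls. NNR1 (GRMZM2G568636), a nitrate reductase gene, mips2 (GRMZM2G004528), of inositol phosphate synthesis, ZIP4 (GRMZM2G111300), RADIALIS (GRMZM2G114503) and BURP10 (GRMZM2G446170) differed by 1.36, 1.08, 2.12, 1.99 and 2.47.

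Several of the genes with the greatest differences had no informative name. GRMZM2G050234 stood at 426, 533, 458 and 442 CPM in wounded leaves, at 0.288 to 1.25 CPM with *O. pratensis*, at 0 to 0.498 CPM with *T. urticae* and at 0 to 0.0833 CPM in controls. It was close to an on and off difference between the damage treatments, 1325-fold on the fitted scale (log2 -10.37 ± 0.37 SE, adjusted p = 4.49e-18). GRMZM2G058024 stood at 215, 344, 205 and 164 CPM in wounded and at 0.231 to 0.973 CPM in mite leaves (log2 -8.56 ± 0.23 SE). GRMZM5G829897 held 1483 reads over the wounded and 5 over the mite leaves. RPL10 (GRMZM2G088005), which carries the name of a ribosomal protein gene, held 927 reads over the wounded and 3 over the mite leaves, 528 times as many after scaling (95% exact counting interval 180 to 2560, log2 -8.75). In the other direction, GRMZM2G043493 stood at 1.4, 0.63, 1.41 and 1.46 CPM in wounded leaves and at 11.7 to 22.2 CPM with mites, inside or near the control range of 18 to 22.1 CPM (log2 3.79 ± 0.24 SE). GRMZM2G150363 and GRMZM2G091742 differed by 3.80 and 3.29.

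Of the 1433 genes called higher with mites than after wounding, 18 were also called higher with mites than in controls, beside 4.1% of all genes tested. Of these, 3 are given here, chosen after their values were seen. GRMZM2G129815 stood at 0.775 to 1.18 CPM in wounded, 1.46 to 3.33 CPM in control, 5.01 to 9.18 CPM in *O. pratensis* and 3.37 to 6.07 CPM in *T. urticae* leaves, so that each mite leaf exceeded each leaf of both other groups (log2 2.59 against wounding and 1.34 against controls). GRMZM2G160710 stood at 6.51 to 10.8 CPM in wounded, 24.1 to 33.7 CPM in *O. pratensis* and 13.2 to 21.9 CPM in *T. urticae* leaves, with 6.23 to 17.4 CPM in controls, which overlapped the *T. urticae* leaves (log2 1.34 and 1.17). MYB41 (GRMZM2G095904) held 0.677 to 1.95 CPM with *O. pratensis*, 0.0895 to 0.705 CPM with *T. urticae* and 0.148 to 0.378 CPM after wounding, with a control mean of 0.157 CPM. Its groups overlapped, and its call (log2 1.59, adjusted p = 0.00202) was lost without wounding replicate 1 (log2 1.39, adjusted p = 0.0121) and with *T. urticae* alone (0.85).

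The mite species were compared with each other in a test added after the data were seen. At 2 h, 152 genes (0.68%) were higher with *O. pratensis* than with *T. urticae*, and 0 (0%) were lower by edgeR's quasi-likelihood test, whereas an unadjusted p under 0.05 was found for 1573 and 226. DESeq2 without its prior gave 236 higher and 1 lower. The counts rested on few leaves: 35 and 45 genes were past the thresholds when replicate 3 or replicate 1 of *T. urticae* was left out, 58 and 89 for replicate 2 or replicate 4 of *O. pratensis*, and 1 in a fit of these groups alone. Among named genes aos1, TIFY9, TIFY10, TIFY29, BX10, BX11, GRMZM2G125923, GRMZM2G063917 and GRMZM2G162359 were called, with log2 differences between species of 1.49, 1.80, 1.81, 2.01, 1.82, 1.75, 1.64, 1.00 and 1.44. Against wounding, *O. pratensis* alone gave 2801 genes lower (12.5%) and 1300 higher (5.82%), and *T. urticae* alone gave 3359 lower (15%) and 1464 higher (6.55%). These comparisons share the wounded leaves.

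The last question was whether the difference between mites and wounding at 2 h was the same at 24 h. It was not: by edgeR's quasi-likelihood test of the difference itself, 4360 genes (19.5%) had a lower mite-wounding difference at 2 h than at 24 h, and 2838 (12.7%) a higher one. Mite leaves held 200 rather than 400 females at 24 h. Wounded leaves were then 24 h past a single injury, while the mites were still feeding. Mite number, duration of feeding and time since injury changed together and cannot be told apart. At 24 h, in other leaves, 1863 genes (8.34%) were called higher with mites than after wounding and 797 (3.57%) lower. Of the 3198 genes called lower at 2 h, 1055 (33% of them and 56.6% of the 1863) were called higher at 24 h, and 101 (3.16% of them and 12.7% of the 797) were called lower. Of the 1433 called higher at 2 h, 72 (5.02%, and 3.86% of the 1863) were called higher at 24 h and 84 (5.86%, and 10.5% of the 797) lower.

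For many of the defence genes named above the order of mite and wounded leaves was reversed at 24 h. lox1 held 52.7 to 178 CPM in wounded and 3.42 to 26.2 CPM in mite leaves at 2 h, but 2.25 to 2.82 CPM in wounded and 455 to 914 CPM in mite leaves at 24 h, and its log2 difference between treatments changed from -3.57 to 8.04. tps10 changed from -4.09 to 7.73, with 4.39 to 9.98 CPM in wounded and 820 to 1950 CPM in mite leaves at 24 h. BX10 changed from -2.90 to 6.86 and wip1 from -6.16 to 3.79. In these 4 genes the leaves at 24 h did not overlap either, with the order of the groups reversed. All 8 genes the study names were called higher with mites at 24 h, but the study chose them on these samples and they are no independent evidence. Over all genes tested, 8.34% were called higher at 24 h. Beside this share stood 11 of 12 benzoxazinoid genes, 13 of 21 TIFY genes, 8 of 13 allene oxide and OPDA reductase genes and 8 of 11 lipoxygenase genes. These are calls at 24 h and not counts of reversals, since members such as BX1, BX2, BX13 and BX14 were not called at 2 h.

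Other genes kept their direction, were not called at 24 h or, among those higher with mites at 2 h, changed to lower. dehydrin3 was lower with mites at both times, with 52.6 to 77.6 CPM in wounded and 14.8 to 38 CPM in mite leaves at 24 h, and its log2 difference went from -4.62 to -1.29. asr1 went from -1.65 to -0.94 and was not called at 24 h. opr1 and WRKY95 went from -6.66 to 0.63 and from -4.93 to 0.46, without a call at 24 h. Among genes higher with mites at 2 h, pip2-5 went from 2.17 to -0.37, whereas thi1 and psad1 were called lower with mites at 24 h, at -1.20 and -1.16. The light harvesting list went from a median of 0.67 to -0.62. At 24 h 5 of its 22 genes were called lower and 1 higher, beside 3.57% lower and 8.34% higher over all genes.

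**Figure D4:**
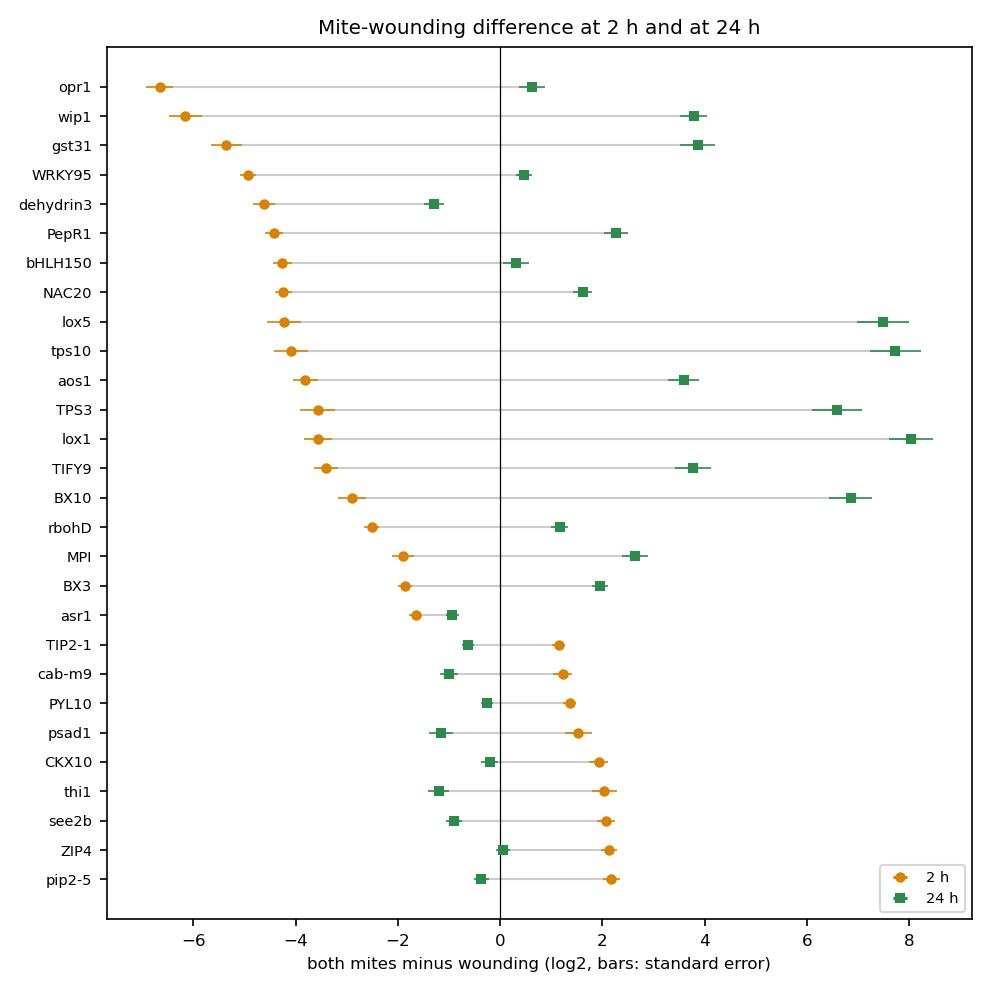
Log2 difference of both mites minus wounding at 2 h (circles) and at 24 h (squares) for 28 named genes, with the standard error as bars, ordered by the difference at 2 h. Defence genes such as lox1 and tps10 cross from -3.57 and -4.09 to 8.04 and 7.73, while dehydrin3 stays below 0 at both times.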

How the data were processed

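Poly(A) RNA of 28 leaf samples in 7 groups of 4 was sequenced by the authors from strand-specific libraries as paired reads. They aligned the reads to the maize genome B73 RefGen_v3 with STAR 2.5.2b and counted uniquely aligned reads per gene with HTSeq 0.6.0. The deposited counts, whole numbers for 39625 genes, were not normalized by the authors. A read that matches several places is left out of such counts, so genes with close copies, as among the BX and TIFY genes, may be undercounted. Groups were taken from the sample titles.

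The tests were run with edgeR 4.0.16 under R 4.3.3: filterByExpr left 22339 genes, libraries were scaled by TMM, and all 28 samples entered 1 quasi-likelihood fit with a mean per group. P-values were adjusted over all genes tested by the Benjamini-Hochberg method, and a call needed an adjusted p of at most 0.01 and a log2 difference of at least 1 in size. The standard error was derived from the test statistic. CPM values use the TMM-scaled library totals, which before scaling ran from 14721310 to 32891100 reads, so a gene with no read in a group was set at 3 reads over the group for a bound, which covers counting error only. P-values measure the spread between single leaves of separate plants.

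The members and gene lists were chosen with earlier results of these data known. Named genes were those the study names by identifier, the benzoxazinoid genes, the 12 of largest difference in each direction and the 5 of highest level among called genes with a described name, an average log2 CPM of at least 1 and no overlap between groups, the 3 of largest difference in each direction whether named or not, and in each list up to 3 called members in each direction and the member of highest level. This rule allowed 221 genes to be named. The text gives values for only some of them, so the largest differences of a list are not all shown. Genes chosen after their values were seen are marked. The 44 lists were drawn up from gene symbols, since the name table used (of the assembly Zm-B73-REFERENCE-NAM-5.0) has no descriptions; 18539 identifiers matched 1 entry. A list's membership is therefore partial. No list was tested as a set. Promoter sequences were not used here, so a planned count of promoter motifs was not run. The alternatives tried were DESeq2 1.42.0, without or with a prior on fold changes, RLE size factors, total counts, no filter, adjusted p of at most 0.05 or 0.001, edgeR's glmTreat against a 2-fold difference, a fit of the compared groups only, the replicate number as a block, each mite species alone and leaving out each library in turn. The comparison of the species was added after the data were seen.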

Additional observations from a re-analysis of the deposited data

Results flagged for a closer look

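In 313 groups of 4 leaves, 23 held a leaf far from the other 3 by Dixon's test, where chance alone gives about 1 in 20, so these leaves are listed as values. Among *O. pratensis* leaves, replicate 1 held 39.2 CPM of lox5 (GRMZM2G102760), replicate 2 held 14 CPM of BX2 (GRMZM2G085661), 5.28 CPM of PepR1 (GRMZM2G011806), 7.16 CPM of psk1 (GRMZM2G044194) and 0.139 CPM of RPL10 (GRMZM2G088005), replicate 3 held 1.25 CPM of In2-2 (GRMZM2G020631) and 191 CPM of asr1 (GRMZM2G136910), and replicate 4 held 0.0401 CPM of BX13 (AC148152.3_FG005). Among *T. urticae* leaves, replicate 1 held 2.63 CPM of GRMZM2G063917, replicate 2 held 24 CPM of gst7 (GRMZM2G028556), 32 CPM of dehydrin3 (GRMZM2G373522) and 0.0523 CPM of RPL10, and replicate 3 held 0.0894 CPM of BX14 (GRMZM2G127418) and 0.134 CPM of GRMZM5G829897. *T. urticae* replicate 4 held 10.8 CPM of BX2, 18.8 CPM of MYBR87 (GRMZM2G158117), 78.8 CPM of pip2-5 (GRMZM2G178693) and 596 CPM of PIP1-1 (GRMZM2G174807). Among wounded leaves at 2 h, replicate 1 held 505 CPM of gst7, replicate 2 held 25.9 CPM of bHLH150 (GRMZM2G045431), 97.9 CPM of TIP2-1 (GRMZM2G027098) and 0.63 CPM of GRMZM2G043493, and replicate 4 held 20.8 CPM of CER1 (GRMZM2G066578).

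The mite species differed in 152 genes higher with *O. pratensis* and 0 higher with *T. urticae*. Of the named genes, the log2 difference between species was 1.49 for aos1 (GRMZM2G067225), 1.80 for TIFY9 (GRMZM2G145412), 1.81 for TIFY10 (GRMZM2G145458), 2.01 for TIFY29 (GRMZM2G036288), 1.82 for BX10 (GRMZM2G311036) and 1.75 for BX11 (GRMZM2G336824). It was 1.64 for GRMZM2G125923, 1.00 for GRMZM2G063917 and 1.44 for GRMZM2G162359.

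The mite-wounding difference was higher at 2 h than at 24 h in 2838 genes and lower in 4360. In 46 of the 104 genes tested that have values in the text it was called in opposite directions at the times. Over all 22339 genes tested, 1055 were called lower at 2 h and higher at 24 h, and 84 the reverse. Many of the named genes were chosen for a large difference at 2 h, so the count is no result about them. The value given is the log2 difference at 2 h minus that at 24 h. The difference between times was -11.61, -9.29, -11.71, -7.4, -11.78 and -4.99 for lox1 (GRMZM2G156861), lox3 (GRMZM2G109130), lox5 (GRMZM2G102760), aos1 (GRMZM2G067225), aos2 (GRMZM2G002178) and aoc1 (GRMZM2G077316). For opr2 (GRMZM2G000236), opr7 (GRMZM2G148281), TIFY9 (GRMZM2G145412), TIFY10 (GRMZM2G145458), TIFY29 (GRMZM2G036288) and BX3 (GRMZM2G167549) it was -7.24, -3.55, -7.18, -8.58, -10.5 and -3.82. BX4 (GRMZM2G172491), BX5 (GRMZM2G063756), BX8 (GRMZM2G085054), BX9 (GRMZM2G161335), BX10 (GRMZM2G311036) and BX11 (GRMZM2G336824) gave -2.24, -2.94, -2.15, -2.77, -9.76 and -9. Values of -4.25, -5.19, -5.58, -5.57, -6.19 and -4.73 were found for GRMZM2G437912, GRMZM2G125923, GRMZM2G147245, GRMZM2G010468, GRMZM2G129189 and chiI (GRMZM2G145461). The difference between times was -4.09, -9.95, -4.54, -11.82, -10.17 and -9.65 for GRMZM2G162359, wip1 (GRMZM2G156632), MPI (GRMZM2G028393), tps10 (GRMZM2G179092), TPS3 (GRMZM2G064406) and TPS2 (GRMZM2G046615). For gst7 (GRMZM2G028556), gst31 (GRMZM2G475059), In2-2 (GRMZM2G020631), NAC20 (GRMZM2G180328), AO1 (GRMZM2G141535) and PP2C7 (GRMZM2G383807) it was -7.71, -9.22, -8.89, -5.86, -9.17 and -3.54. MAPK (GRMZM2G053987), PepR1 (GRMZM2G011806), psk1 (GRMZM2G044194), rbohD (GRMZM2G441541), expa2 (GRMZM2G105844) and psad1 (GRMZM2G024150) gave -2.55, -6.69, -7.18, -3.68, -7 and 2.69. Values of -5.51, 3.24, -4.37 and -14.35 were found for HAK5 (GRMZM2G084779), thi1 (GRMZM2G018375), MPAO (GRMZM2G034152) and GRMZM2G050234.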

How the results depend on the processing

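Of the 104 genes with values in the text that were tested, 93 were called. No called gene reversed its direction under any alternative, and 1 gene without a call changed sign with *T. urticae* alone. Under glmTreat 15 lost their call. These were BX4, BX5 and BX8 among the genes called lower, and otherwise genes called higher, such as opr6 (adjusted p = 0.0137 by glmTreat). Apart from glmTreat, 4 genes changed side: BX4 and BX8 with *O. pratensis* alone, BX13 and MYB41. BX13 was called by DESeq2 without its prior and at an adjusted p of 0.05. Under glmTreat against a 2-fold difference, 2472 genes (380 higher, 2092 lower) were called for mites against wounding at 2 h, 3945 (960 higher) for 2 h against 24 h, 474 (474 higher, 0 lower) for mites against controls, 3371 (600 lower) for wounding against controls and 2 for the species. It also left 5 of the 8 calls among benzoxazinoid genes. The lower calls of mites against controls numbered 42 at an adjusted p of 0.05, 2 at 0.001 and 8 with only the groups compared. The species calls numbered 265 (264 higher, 1 lower) at 0.05, 29 at 0.001, 237 (236 higher, 1 lower) by DESeq2 without its prior and 1 with only the groups compared. The cause was not tested. Leaving out each library gave 4349 to 4775 genes for the main comparison (1217 to 1466 higher, 3054 to 3376 lower), 6942 to 7425 for 2 h against 24 h (2490 to 2995, 4221 to 4637), 853 to 972 for mites against controls (836 to 964, 2 to 39), 5457 to 5745 for wounding against controls (3669 to 3964, 1696 to 1897) and 35 to 223 for the species (35 to 223, 0 to 0). RLE scaling moved the median over all genes from 0.02 to -0.01, and 29% rather than 30.9% of calls were higher. Leaves with the same replicate number correlated over 0.1 in 11 of 12 pairs at 2 h (lowest -0.05, highest 0.42) and the same number was the best match in 8 of 12. All 8 pairs of a wounded and a mite leaf were over 0.1 and a pair of mite leaves was not. This is a hint from the data that same-numbered treated leaves at 2 h go together. Pairs with a control leaf did not show it throughout. With wounding, *O. pratensis* and *T. urticae* at 2 h, control replicate 1 gave -0.218, -0.19 and -0.132, and control replicate 3 gave 0.25, 0.222 and 0.435. The labels do not say what a number stands for. The study used randomized blocks of plants and spread its replicates evenly over sequencing lanes, but it ties no replicate number to either. With the replicate number as a block, the main comparison gave 4652 genes (1457 higher, 3195 lower) and the species 207, homeobox factors called higher numbered 2 rather than 1, and no named gene lost its call. Levels under about 3 reads in a group were below what this depth resolves.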
